A study of Sus scrofa with 12 samples.

Results

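Stop codon m6A peaks are regions enriched in an m6A assay that cover the end of an open reading frame. They were chosen by annotation alone, from the authors' deposited table of merged peaks: peaks listed under 1 gene, not of a lncRNA gene, no wider than 10000 bp, whose position holds the stop codon and not the start codon. The rule takes 5186 of 25055 distinct peaks (20.7%), on 4821 genes. Of these genes, 4473 carry 1 such peak, 332 carry 2, 15 carry 3 and 1 carries 4. The widest peak taken is that of AFDN, the adherens junction scaffold afadin, at 9781 bp, and the narrowest left out for its width is that of PDE3A, a cyclic nucleotide phosphodiesterase, at 10021 bp, 1 of 52 left out in this way.

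All groups were IPEC-J2 cells of wild-type genotype, a pig line derived from jejunal epithelium. OAA cells received 25 µM of a compound labelled OAA for 24 h, and CON cells received 0 µM for the same time. Fragmented RNA was sequenced with and without selection by an m6A antibody (MeRIP-seq), 3 numbered replicates for each treatment and kind of library, which makes 12 libraries in 4 groups of 3: OAA labelled input, CON labelled input, OAA labelled IP and CON labelled IP. The labels do not state separate cultures for the replicates, and p-values therefore cover the spread among these libraries, possibly a technical one.

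N6-methyladenosine is placed on mRNA by a writer complex built around METTL3 and METTL14, can be removed by the demethylases FTO and ALKBH5, and is bound by reader proteins, among them the YTH family. Writers prefer adenosines in a short sequence context in long internal and last exons, so the region around the stop codon and the start of the 3′ UTR is the best known place of the mark in mammalian mRNA. Marked mRNAs are often short-lived, since YTHDF2 and related readers can recruit deadenylases.

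The 6 libraries labelled input held 16491095 to 23010413 reads in peaks, and the 6 labelled IP held 3709352 to 4607452. Library codes and titles disagree on which kind was selected by the antibody. The groups follow the titles, and the peak ratio divides labelled input by labelled IP (log2), as the deposited ratios of the authors do. If the titles hold, its sign as antibody enrichment turns. Summed raw reads were higher in labelled input for 98.4% of stop codon peaks in OAA and 99.5% in CON. Over all peaks these shares were 96.8% and 97.9%. The deposited log2 ratios had medians of 4.04 in OAA and 3.97 in CON over all peaks. Which kind was selected by the antibody was not tested. Among cell type markers, 7 of 7 epithelial ones in the gene table were at a mean of 1 FPKM or more, with sums of 981 to 1096 FPKM in OAA and 1057 to 1147 FPKM in CON, while 1 of 5 enterocyte markers (SI), 1 of 4 goblet (FCGBP), 0 of 3 enteroendocrine, 0 of 4 fibroblast, 3 of 3 endothelial (sums of 6.19 to 6.90 FPKM in OAA and 5.52 to 6.73 FPKM in CON) and 1 of 4 leukocyte markers (LYZ) did. The enterocyte structural gene VIL1 was under 1 FPKM, and the goblet mucin MUC2 and the leukocyte antigen PTPRC were listed at 0.

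Stop codon peaks took a larger share of reads in the libraries labelled input than in those labelled IP, in both treatments. They held 37.4% ± 0.289 of the reads in peaks in OAA labelled input and 30.2% ± 0.496 in OAA labelled IP (SD, n = 3 each). In CON the shares were 37.5% ± 0.287 in labelled input and 30.4% ± 0.233 in labelled IP (SD, n = 3 each). The single libraries labelled input lay between 37.1% and 37.7% and those labelled IP between 29.9% and 30.8%, so the kinds did not overlap, while OAA and CON overlapped within each kind. The shares of start codon, 3′ UTR and coding sequence peaks lay the other way: start codon peaks held 9.02% in OAA labelled input and 12.8% in OAA labelled IP, peaks wholly in 3′ UTR 11.8% and 12.7%, and peaks wholly in coding sequence 17.3% and 18.5%. Peaks wholly in 5′ UTR held 1.40% in both kinds in OAA, and 1.41% in labelled input and 1.38% in labelled IP in CON. The shares are a description, with no test.

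**Figure D1:**
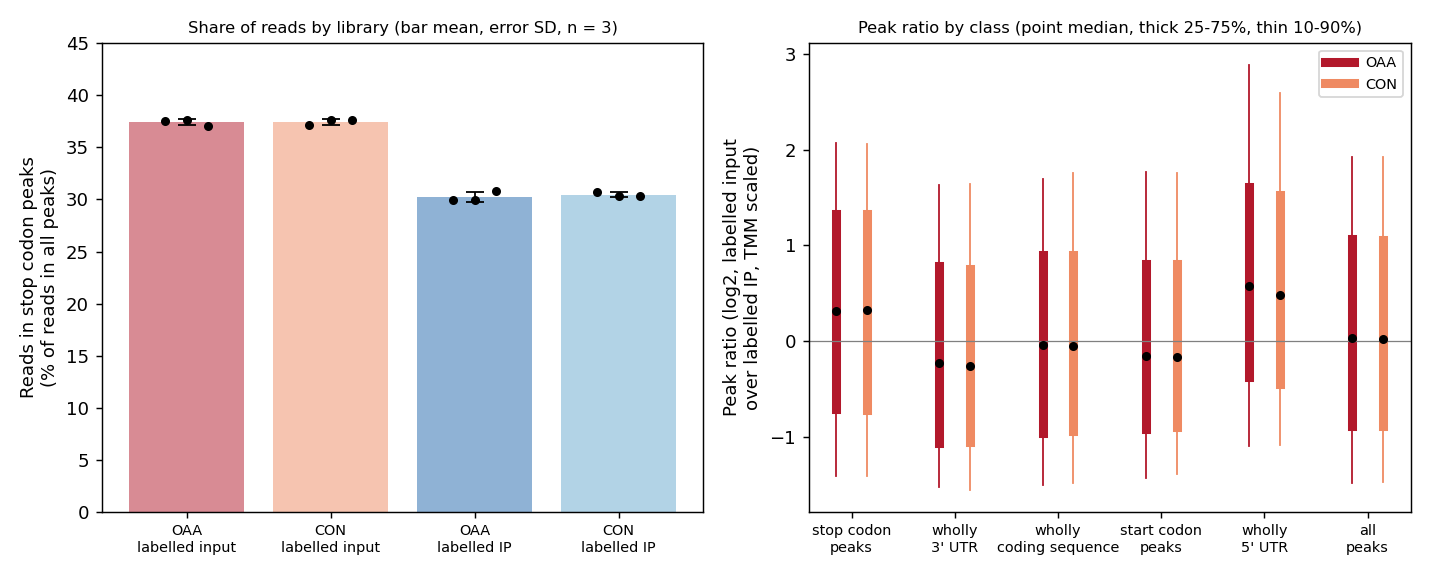
Left, share of each library's reads in peaks (percent) that lie in stop codon peaks, by group; bars are means, error bars SD over 3 libraries, points single libraries. Right, peak ratio (log2, labelled input over labelled IP) of 6 classes of peak in OAA and CON; points are medians, thick lines the middle 50% and thin lines the 10th to 90th percentile. Stop codon peaks stand at a median of 0.31 in OAA and 0.32 in CON, above all peaks at 0.03 in both.

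Of the 5186 stop codon peaks, 5120 had enough reads to be tested for the peak ratio, and 66 did not. In OAA, 2365 (46.2%) were called higher in labelled input and 1621 (31.7%) lower (edgeR quasi-likelihood test, Benjamini-Hochberg adjusted p under 0.05 over all 24145 peaks tested), beside 34.1% of all peaks higher and 34.4% lower. In CON, 2378 (46.4%) were called higher and 1614 (31.5%) lower, beside 33.9% and 34.2% of all peaks. The same direction was called in both treatments for 2246 higher and 1497 lower peaks, and 0 were called in opposite directions. Both ratios come from the same fit over 12 libraries, and this count was not made over all peaks. It is therefore not shown to be a trait of stop codon peaks. A ratio of 0 means that a peak's scaled reads were equal in both kinds of library, as for a typical peak. It does not mean that the peak lacks enrichment, and neither does a ratio below 0. Scaling by library size in place of trimmed means (TMM) lowered the median of the stop codon peaks to 0.04 in OAA and 0.02 in CON, while its distance from the median of all peaks stayed at 0.28 in OAA and 0.30 in CON. With that scaling the calls were near even, 2043 higher (39.9%) and 1961 lower (38.3%) in OAA and 2031 higher (39.7%) and 1983 lower (38.7%) in CON, beside 27.9% of all peaks higher and 41.0% lower in OAA and 26.99% and 41.7% in CON. Ratios printed below are scaled by TMM, and by library size they move by about -0.28 in OAA and -0.30 in CON, so medians between 0 and these sizes change sign.

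Among the classes of peak, the median peak ratio of stop codon peaks was 0.31 in OAA and 0.32 in CON. Peaks wholly in 3′ UTR had -0.23 in OAA and -0.26 in CON, peaks wholly in coding sequence -0.04 and -0.06, and start codon peaks -0.16 in both. Peaks of lncRNA genes, at 0.92 in OAA and 0.91 in CON, and peaks wholly in 5′ UTR, at 0.57 in OAA and 0.48 in CON, were above stop codon peaks. Between the 10th and 90th percentile stop codon peaks spanned -1.41 to 2.07 in OAA, so the class medians differ by far less than peaks differ within a class.

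The same comparison was made inside genes that carry both a stop codon peak and a peak of another class. The stop codon peak had the higher ratio than the gene's peaks wholly in 3′ UTR in 851 of 1350 genes in OAA (63.0%) and in 863 (63.9%) in CON. Against peaks wholly in coding sequence it was higher in 978 of 1543 genes in OAA (63.4%) and in 961 (62.3%) in CON. Against start codon peaks the counts were near even, 864 of 1710 genes in OAA and 887 in CON. Against peaks wholly in 5′ UTR the stop codon peak was higher in the minority of genes, 189 of 467 in OAA and 198 in CON. The middle 50% of genes for the difference from 3′ UTR peaks reached from -0.49 to 1.61 in OAA and from -0.48 to 1.63 in CON, on the log2 scale.

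Which neighbours of the stop codon a peak covered went with its ratio. Peaks that reach into both coding sequence and 3′ UTR were 3179 of the 5186 (61.3%), with a median span of 400 bp and a median ratio of 0.58 in OAA and 0.61 in CON. Peaks of stop codon and 3′ UTR without coding sequence numbered 1456 (28.1%), with a median span of 225 bp and a median ratio of -0.24 in OAA and -0.25 in CON. Peaks of coding sequence and stop codon without 3′ UTR numbered 538 (10.4%), with a median span of 250 bp and 0.10 in OAA and 0.13 in CON. The other 13 peaks were annotated with the stop codon alone.

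The median ratio differed more between bands of span than between these annotations. The median span was 325 bp, with the middle 50% between 200 and 569 bp. Peaks of up to 100 bp had a median ratio of -1.20 in OAA and -1.15 in CON, with 14 called higher and 220 lower of 380 in OAA. Peaks over 300 and up to 500 bp had 0.68 in OAA and 0.72 in CON, and those over 500 and up to 1000 bp 1.24 and 1.25, with 832 called higher and 77 lower of 994 in OAA. The ratio was lower again above 2000 bp, at 0.44 in OAA and 0.45 in CON.

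Within one band of span, stop codon peaks were not always the higher class. Over 100 and up to 200 bp their median was -0.93 in OAA, below -0.81 for peaks wholly in 3′ UTR and -0.59 for peaks wholly in coding sequence. Over 500 and up to 1000 bp the order was the reverse, with 1.24 for stop codon peaks, 1.05 for 3′ UTR and 0.64 for coding sequence in OAA. The median span was 325 bp for stop codon peaks, 200 bp for peaks wholly in 3′ UTR and 300 bp for peaks wholly in coding sequence, and the part of span in the class medians was not tested.

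**Figure D2:**
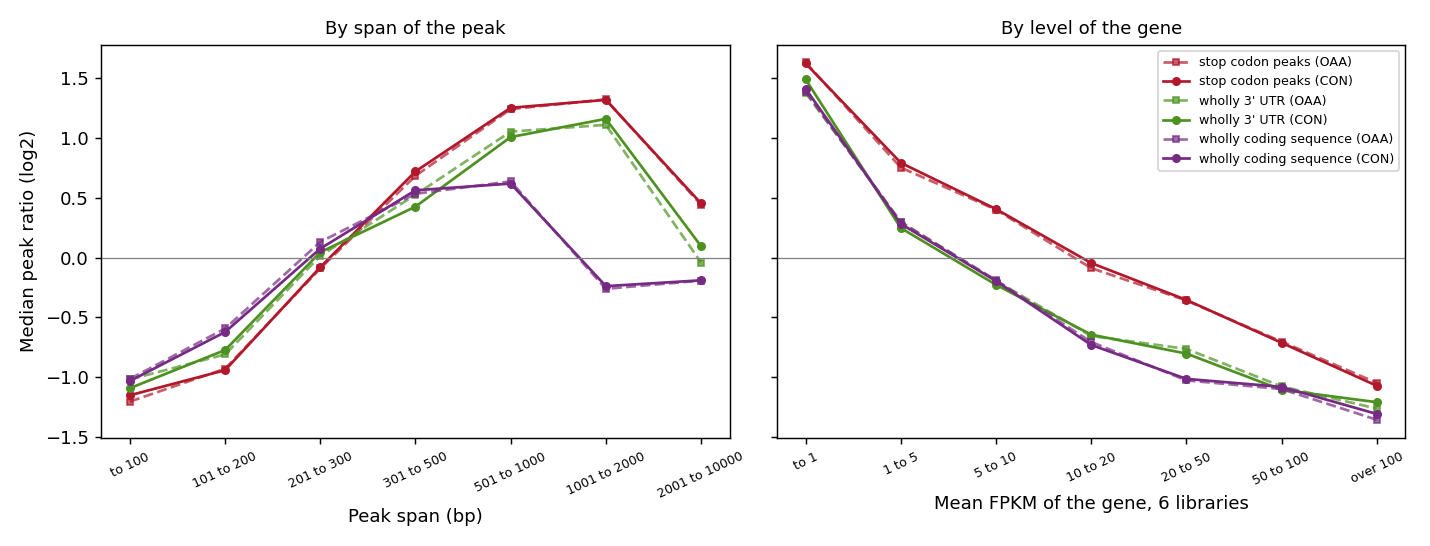
Median peak ratio (log2) of stop codon peaks, peaks wholly in 3′ UTR and peaks wholly in coding sequence, by span of the peak in bp (left) and by mean FPKM of the gene over 6 libraries (right); solid lines are CON, dashed lines OAA. Stop codon peaks run from -1.20 at up to 100 bp to 1.32 over 1000 and up to 2000 bp in OAA, and lie lower at higher FPKM.

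Stop codon peaks of genes with low FPKM had the higher ratios. In OAA the median was 1.63 for genes of up to 1 FPKM, 0.75 at 1 to 5 FPKM, -0.09 at 10 to 20 FPKM and -1.05 above 100 FPKM. In CON these medians were 1.62, 0.79, -0.05 and -1.07. The FPKM come from the libraries labelled IP, which are also below the line in the ratio, so the 2 measures share libraries and the slope is no independent result. If the titles hold, these FPKM describe RNA selected by the antibody and not the level of expression. At 10 to 20 FPKM stop codon peaks in OAA stood at -0.09, while peaks wholly in 3′ UTR stood at -0.66 and those wholly in coding sequence at -0.71.

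Stop codon peaks of the same gene could differ in ratio. Among 341 genes with several tested peaks the median gap between the highest and lowest ratio in CON was 0.98, the gap exceeded 1 in 166 genes, and in 147 the ratios had opposite signs. Both signs were common among all stop codon peaks, with 2976 of 5120 above 0 in CON. Whether peaks of the same gene differ more or less than peaks of unlike genes was not tested. WTAP, the adaptor that holds the writer complex in nuclear speckles, is an example of a gene with 2 such peaks. Its peak at chr1:7623194-7623743 reaches from coding sequence into 3′ UTR and had 248, 249 and 270 counts per 1000000 reads in peaks (CPM) in OAA labelled input and 111, 106 and 120 CPM in OAA labelled IP, a ratio of 1.46 ± 0.08 (SE). Its second peak at chr1:7629882-7630156 covers stop codon and 3′ UTR and had 15.2, 18.4 and 17.5 CPM in OAA labelled input and 22.6, 24.8 and 32.8 CPM in OAA labelled IP, a ratio of -0.37 ± 0.17 (SE). The build behind all positions is not given in the sources used here.

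The highest ratio in CON among peaks called in both treatments with enough reads on both sides was that of TSC1, which encodes hamartin, a subunit of the complex that restrains mTORC1. Its peak of 650 bp at chr1:272641082-272641731 had 275, 262 and 246 CPM in OAA labelled input and 25.0, 25.3 and 22.9 CPM in OAA labelled IP. In CON it had 255, 263 and 236 CPM in labelled input and 15.2, 17.0 and 25.1 CPM in labelled IP. The kinds did not overlap in either treatment, which the choice of peaks required, as it required a call in both. The ratio was 3.69 ± 0.11 (SE) in OAA and 4.03 ± 0.12 in CON, with adjusted p = 8.56e-23 and 3.53e-23 (edgeR).

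The other 9 of the 10 highest ratios in CON, chosen alike, lay between 3.49 and 3.84. CDCP1, a transmembrane protein phosphorylated by Src kinases, had the most reads among them, with 656, 666 and 581 CPM in OAA labelled input and 64.9, 61.0 and 64.4 CPM in OAA labelled IP. Its ratio was 3.60 ± 0.08 (SE) in OAA and 3.52 ± 0.08 in CON. LPAR5, a receptor for lysophosphatidic acid, stood at 3.50 in OAA and 3.75 in CON, and GJC1, the gap junction protein connexin 45, at 3.93 and 3.74. The transcription factors FOXP2 and MNX1 stood at 2.84 and 3.53 in OAA and at 3.54 and 3.49 in CON. FOXP2 rests on few reads on its lower side, 0.248, 4.26 and 2.70 CPM in CON labelled IP. IER5L, KCTD18, FIZ1 and LURAP1L complete the group, with 4.06, 4.13, 3.83 and 3.87 in OAA and 3.66, 3.84, 3.65 and 3.58 in CON.

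At the other end stood RPS24, a protein of the small ribosomal subunit. Its peak of 125 bp had 2.80, 3.88 and 3.99 CPM in OAA labelled input and 98.8, 97.4 and 93.7 CPM in OAA labelled IP, a ratio of -4.49 ± 0.15 (SE). In CON the ratio was -4.44 ± 0.15, with adjusted p = 5.86e-22 (edgeR), and the next lowest peak stood at -2.35. A gene named RPS24 with a stop codon peak was listed at 4123 ± 49.8 FPKM in OAA and 3996 ± 122 FPKM in CON (SD, n = 3 each). A further gene of this name with a stop codon peak was listed at 0 FPKM in both treatments. These levels are given by symbol and are not matched to the peak described.

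The other 9 of the 10 lowest ratios lay between -2.35 and -2.17 in CON. They include TLE5, a corepressor of the Groucho family (-2.47 in OAA, -2.28 in CON), U2AF1, the splicing factor that recognises the 3′ splice site (-2.10 in OAA, -2.19 in CON), and WAPL, which releases cohesin from chromatin (-1.67 in OAA, -2.29 in CON). DSP, the desmosome plaque protein desmoplakin, stood at -1.79 in OAA and -2.17 in CON, and ZRANB1, a deubiquitinase, at -2.26 and -2.17. UTP23, SWI5, TBC1D23 and DHRSX had -2.13, -2.14, -1.59 and -1.22 in OAA and -2.27, -2.19, -2.28 and -2.35 in CON. Of these 10 lowest peaks, those of SWI5 and U2AF1 span 50 bp, and those of DHRSX and ZRANB1 span 4577 and 1588 bp.

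**Figure D3:**
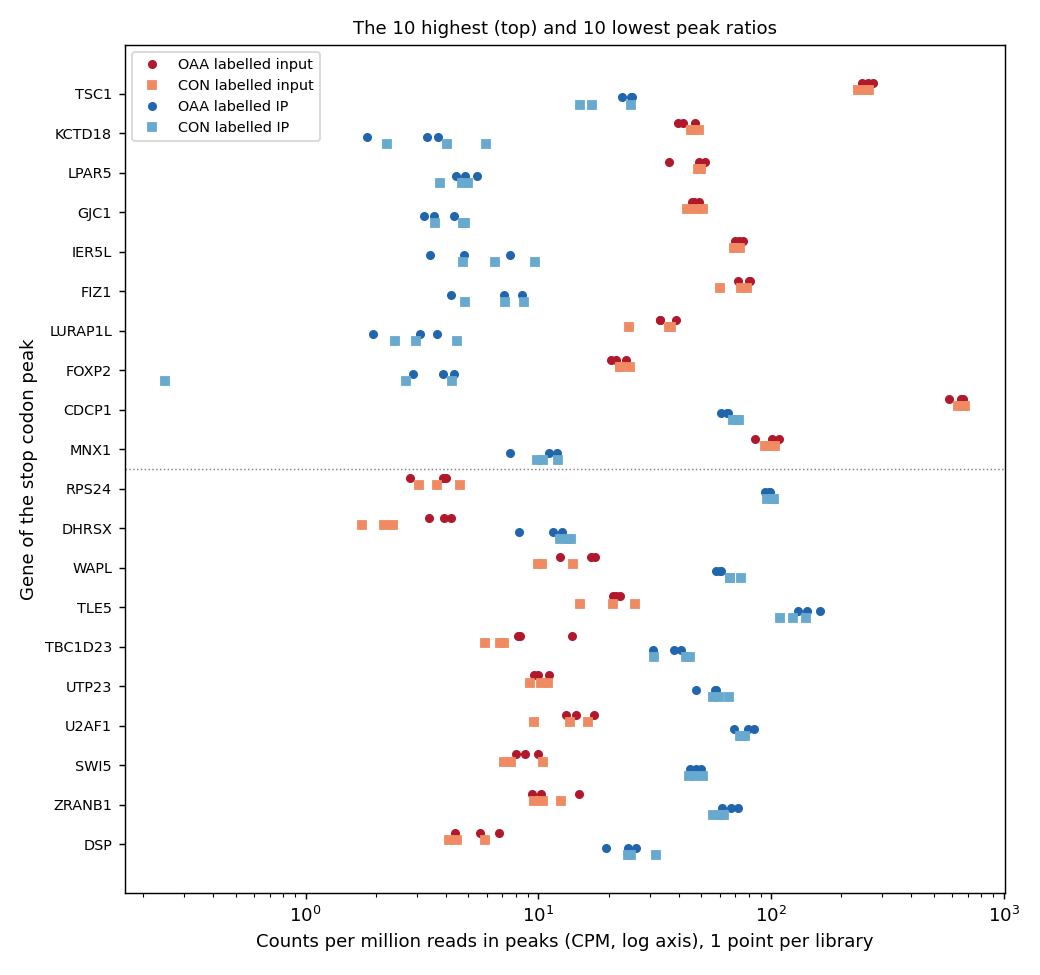
Counts per 1000000 reads in peaks (CPM, log axis) of the 10 stop codon peaks with the highest and the 10 with the lowest peak ratio, 1 point per library, for OAA and CON labelled input (red, orange) and OAA and CON labelled IP (dark and light blue). In every named peak the 6 libraries labelled input and the 6 labelled IP do not overlap, which the choice of peaks required within each treatment.

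By reads, the leading stop codon peaks were those of THBS1, an extracellular matrix glycoprotein (1.05% of all reads in stop codon peaks), EEF2, the elongation factor that moves the ribosome (0.945%), and CLDN4, a tight junction claudin (0.774%). Their ratios were 1.53, 0.55 and 1.52 in OAA and 1.44, 0.56 and 1.47 in CON. P2RY2, a receptor for extracellular nucleotides, combined many reads with a high ratio, at 3.54 in OAA and 3.33 in CON.

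Of the 9 writer genes listed, 7 carry a stop codon peak, METTL3 not among them, with 8 peaks in all. In OAA 4 were called higher and 2 lower, and in CON 4 higher and 1 lower, with medians of 0.42 and 0.38. The share called higher, 50% in each treatment, was near the 46.2% in OAA and 46.4% in CON of all stop codon peaks given above. RBM15B, which guides the complex to RNA, had 457, 454 and 403 CPM in OAA labelled input and 171, 151 and 158 CPM in OAA labelled IP, a ratio of 1.73 in OAA and 1.85 in CON. CBLL1 and ZC3H13, further subunits, stood at 0.97 and 0.92 in OAA and 0.95 and 0.72 in CON. METTL16, a separate methyltransferase, stood at -0.09 in OAA and 0.04 in CON, and VIRMA at -0.24 and -0.18, and these were not called.

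METTL14, the RNA-binding partner of METTL3, was the writer with the lowest ratio. Its peak of 275 bp had 15.1, 11.1 and 15.4 CPM in OAA labelled input and 42.8, 38.8 and 46.8 CPM in OAA labelled IP. In CON it had 18.9, 21.6 and 17.4 CPM in labelled input and 42.7, 45.7 and 34.2 CPM in labelled IP. The ratio was -1.35 ± 0.15 (SE) in OAA and -0.78 ± 0.15 in CON, both called. The OAA libraries labelled input were all below the CON ones, and the change of the ratio was -0.57 ± 0.21, which did not pass (edgeR unadjusted p = 0.0122, adjusted p = 0.999).

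The demethylase FTO carries no peak among these members, and ALKBH5 carries 1. The ALKBH5 peak had 16.8, 15.6 and 12.7 CPM in OAA labelled input and 39.5, 53.7 and 44.7 CPM in OAA labelled IP. Its ratio was -1.33 ± 0.15 (SE) in OAA and -1.48 ± 0.16 in CON, both called lower. In the authors' deposited log2 ratios the same peak stood at 2.64 in OAA and 2.39 in CON. Of 14 reader genes, 10 carry a stop codon peak. In each treatment 0 of these peaks were called higher and 9 lower (90.0%), with medians of -1.02 in OAA and -1.002 in CON. Among all stop codon peaks 46.2% were called higher and 31.7% lower in OAA, and 46.4% and 31.5% in CON. IGF2BP2 and ELAVL1, both known for stabilising bound mRNAs, stood at -1.87 and -1.97 in OAA and -1.74 and -1.72 in CON. HNRNPC, a nuclear RNA-packaging protein, stood at -1.46 in OAA and -1.54 in CON, and RBMX at -0.18 and -0.22. The 10 reader peaks had a median span of 250 bp, and their genes stood at means of 6.62 to 419 FPKM. The part of span and gene level in their ratios was not tested. In the authors' deposited log2 ratios the reader peaks had medians of 2.93 in OAA and 2.90 in CON.

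YTHDF2, the reader that brings marked mRNAs to deadenylases, had 17.5, 16.7 and 18.8 CPM in OAA labelled input and 27.8, 30.2 and 33.2 CPM in OAA labelled IP. In CON it had 17.1, 20.8 and 18.3 CPM in labelled input and 29.1, 33.8 and 23.5 CPM in labelled IP. Its ratio was -0.51 ± 0.15 (SE) in OAA, called lower with adjusted p = 0.00383 (edgeR), and -0.32 ± 0.15 in CON, which was not called, with adjusted p = 0.0620. The difference between these ratios was -0.18 ± 0.21 and did not pass (unadjusted p = 0.397, edgeR).

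PSMD3 belongs to the lid of the proteasome. Its peak had 33.2, 28.0 and 32.0 CPM in OAA labelled input and 85.5, 102 and 86.9 CPM in OAA labelled IP. Its ratio was -1.28 ± 0.11 (SE) in OAA and -1.55 ± 0.12 in CON, both called lower, and their difference was 0.26 ± 0.16 (unadjusted p = 0.114, edgeR). Of 39 proteasome genes listed, 6 carry a stop codon peak. In each treatment 1 peak was called higher (16.7%) and 5 lower (83.3%), with medians of -1.59 in OAA and -1.61 in CON. Among all stop codon peaks 46.2% were called higher and 31.7% lower in OAA, and 46.4% and 31.5% in CON. PSMD7 was the peak called higher, at 0.50 in OAA and 0.64 in CON. These 6 peaks had a median span of 237.5 bp, and their genes stood at means of 19.7 to 108 FPKM. The part of span and gene level in their ratios was not tested. In the authors' deposited log2 ratios these peaks had medians of 2.36 in OAA and 2.28 in CON.

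Short-lived regulators, a list of immediate early transcription factors and feedback genes, lay at the high end. Of 33 tested peaks on 31 of 48 genes, 24 were called higher (72.7%) and 6 lower (18.2%) in each treatment, with medians of 1.13 in OAA and 1.14 in CON, beside 0.31 and 0.32 for all stop codon peaks, of which 46.2% were called higher and 31.7% lower in OAA. Their median span was 450 bp. BHLHE40, a transcription factor of the circadian and stress response, had 1619.9, 1654 and 1517 CPM in OAA labelled input and 409, 366 and 368 CPM in OAA labelled IP, a ratio of 2.34 in OAA and 2.40 in CON. SOX9 stood at 2.22 in OAA and 2.72 in CON, EGR1 at 1.73 and 1.83, and MYC at 1.27 and 1.32. ATF3, FOSL1 and NFKBIA were at the other end, at -2.19, -1.42 and -1.01 in OAA and -1.58, -1.55 and -1.24 in CON.

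Peaks of zinc finger genes (symbols starting with ZNF) were called higher in 95 and lower in 19 of 169 cases in OAA (56.2% and 11.2%) and in 94 and 20 in CON, with medians of 0.78 and 0.80, beside 46.2% higher and 31.7% lower for all stop codon peaks in OAA. ZNF579 had 3.80 in OAA and 3.37 in CON, and ZNF326 -1.80 and -1.78. Oxidative phosphorylation genes lay the other way, 2 higher (13.3%) and 12 lower (80.0%) of 15 in OAA and 2 and 11 in CON, with medians of -1.08 in both. NDUFS6, an accessory subunit of complex I, was the exception with the highest ratio, at 2.34 in OAA and 2.24 in CON, while COX6A1 of complex IV stood at -1.72 and -1.79. The rule behind this list also takes the assembly factors NDUFAF4 and SDHAF3. The median span was 350 bp for peaks of zinc finger genes and 325 bp for those of oxidative phosphorylation genes. For none of the gene lists was the part of span and gene level in the ratios tested.

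Of 22 tested peaks of lipid metabolism genes, 6 were called higher (27.3%) and 13 lower (59.1%) in OAA and 5 and 13 in CON, with medians of -0.58 and -0.68, beside 46.2% and 31.7% of all stop codon peaks in OAA. PPARA, the nuclear receptor that drives fatty acid oxidation, stood at 1.43 in OAA and 1.82 in CON, and the phosphatidate phosphatases LPIN2 and LPIN1 at 1.43 and 1.09 in OAA and 1.31 and 1.14 in CON. SCD, the desaturase that makes oleate, had 146, 156 and 153 CPM in OAA labelled input and 609, 600 and 634 CPM in OAA labelled IP, a ratio of -1.74 in OAA and -1.81 in CON. ACSL4 and MGLL stood at -2.10 and -1.51 in OAA and -2.10 and -1.79 in CON.

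Junction and epithelial structure genes had 11 tested peaks. In OAA 2 were called higher (18.2%) and 7 lower (63.6%), beside 46.2% and 31.7% of all stop codon peaks. In CON 2 were called higher and 6 lower, and the medians were -0.89 in OAA and -0.53 in CON. CLDN4 and CTNNA1 were those called higher, although CTNNA1 in OAA turned to -0.00035 and was not called with library size scaling, and CLDN3 and DSC2 were among those called lower, at -1.21 and -1.52 in OAA and -1.64 and -1.28 in CON. Of 12 stress and endoplasmic reticulum peaks, 6 were called higher (50%) and 4 lower (33.3%) in OAA and 7 and 4 in CON, shares near the 46.2% and 31.7% of all stop codon peaks in OAA. The glutathione-degrading enzyme CHAC1 stood at 1.82 in OAA and 1.68 in CON, and the disulfide isomerase PDIA3 at -1.69 and -1.58. Of 7 tested peaks of cytosolic ribosomal proteins, 3 were called higher and 3 lower in each treatment (42.9% each), and such genes share reads with many pseudogene copies.

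**Figure D4:**
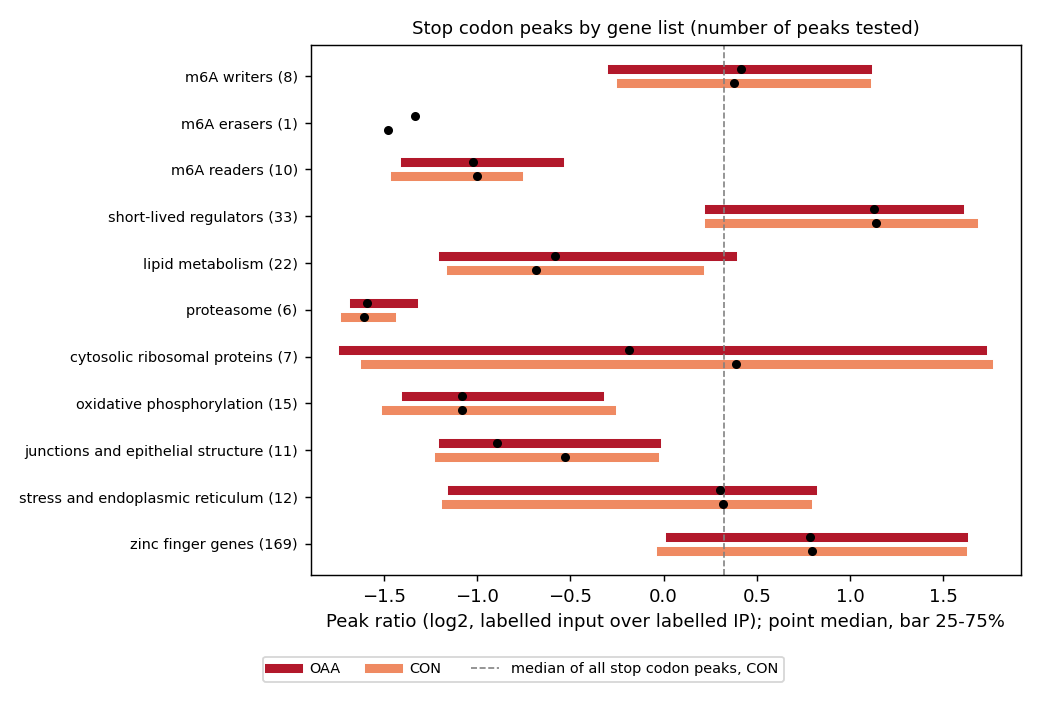
Peak ratio (log2, labelled input over labelled IP) of stop codon peaks by gene list, with the number of peaks tested; points are medians and bars the middle 50%, OAA above CON, and the dashed line is the median of all stop codon peaks in CON. Short-lived regulators and zinc finger genes lie right of the line, and readers, proteasome and oxidative phosphorylation genes left of it.

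OAA against CON, the treatment comparison, gave 0 called stop codon peaks in each of 3 tests. For the change of the peak ratio, 0 of 5120 peaks passed in either direction (edgeR), beside 0% of all peaks, and 173 (3.38%) had an unadjusted p under 0.05, beside 4.46% of all peaks; DESeq2 called 0, with 168 such peaks. In labelled input 0 of 5181 passed, beside 0% of all peaks, and 224 (4.32%) had an unadjusted p under 0.05, beside 5.2% of all; DESeq2 called 0, with 215. Without replicate 3 of OAA labelled input the unadjusted count was 361 of 5184 (6.96%), beside 6.85% of all peaks. In labelled IP 0 of 4688 passed, beside 0.00498% of all peaks higher and 0% lower, and 159 (3.39%) had an unadjusted p under 0.05, beside 3.88% of all; DESeq2 called 0, with 75. Without replicate 3 of OAA labelled IP it was 423 of 4737 (8.93%), beside 8.71% of all peaks. The authors' deposited table gives 0 members an adjusted p under 0.05 and 82 (1.58%) an unadjusted one, beside 2.69% of all peaks.

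The precision of these comparisons can be given from the fits. For the 3039 stop codon peaks with a mean of at least 20 CPM, the median half-width of the 95% interval was 0.33 log2 units for the change of the ratio, 0.20 for labelled input and 0.25 for labelled IP. The middle 95% of these peaks' estimates lay between -0.33 and 0.31 for the change, between -0.21 and 0.23 for labelled input and between -0.28 and 0.26 for labelled IP. A miss of the threshold does not show that a peak was equal in both treatments. The 3 comparisons share libraries, so they are not independent of each other.

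**Figure D5:**
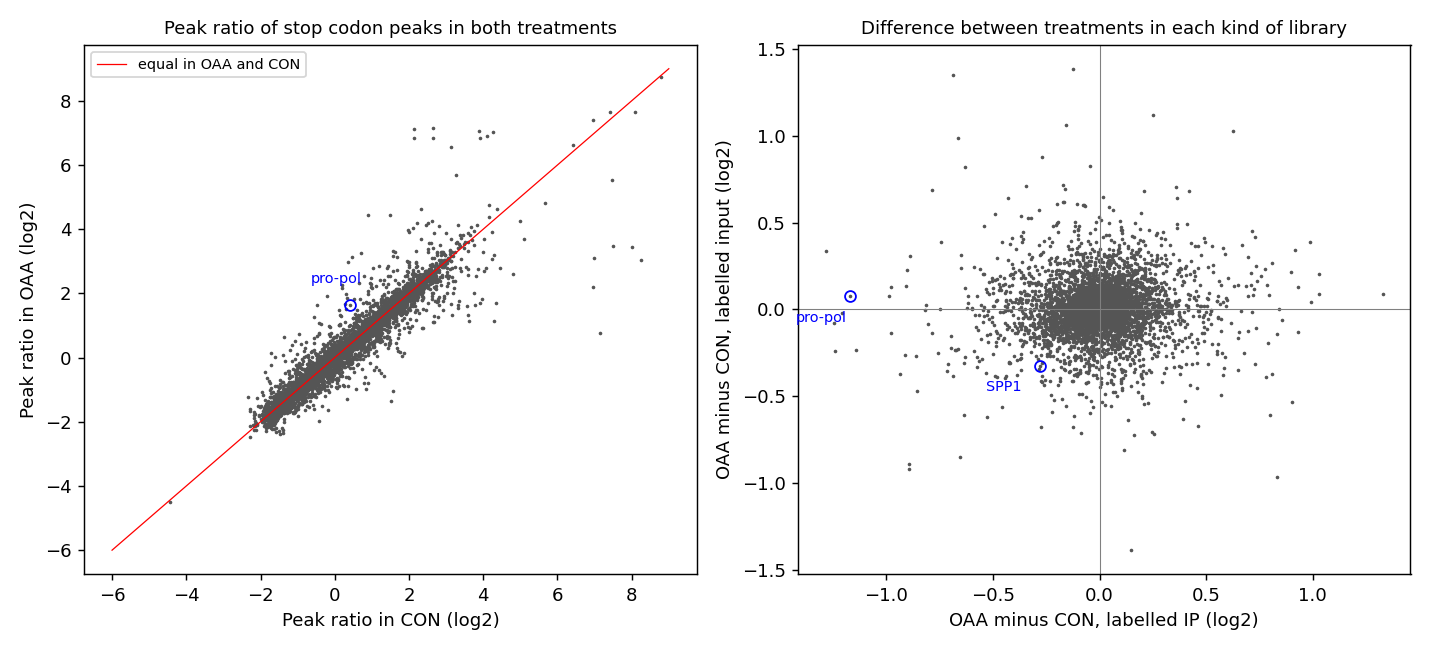
Left, peak ratio (log2) of each tested stop codon peak in OAA against CON, with the line of equal values; points far above 4 have few or no reads in labelled IP. Right, difference of OAA minus CON (log2) in labelled input against labelled IP; the pro-pol peak on chromosome 5 and the SPP1 peak are circled, at -1.17 and -0.28 in labelled IP.

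Peaks named by p below carried a gene symbol and had a mean of at least 5 CPM in the higher group. Among such peaks the smallest p for the change of the ratio belonged to MRPL33, a protein of the mitochondrial large ribosomal subunit. Its peak of 175 bp had 8.02, 8.93 and 8.51 CPM in OAA labelled input, against 12.4, 14.3 and 10.1 CPM in CON labelled input, and 45.6, 54.8 and 56.6 CPM in OAA labelled IP, against 45.5, 34.0 and 40.7 CPM in CON labelled IP. The change was -0.94 ± 0.22 (SE) with unadjusted p = 0.000160 and adjusted p = 0.974 (edgeR), so it did not pass. The groups did not overlap in either kind of library, but the peak was picked for its small p. In labelled IP the nearest libraries stood at 45.6 CPM in OAA and 45.5 CPM in CON. MRPL33 had 20.3 ± 2.12 FPKM in OAA and 15.5 ± 2.13 FPKM in CON (SD, n = 3 each), from the same libraries labelled IP. The other peaks of this direction named by p were CECR2, a chromatin remodelling factor, at -1.43, the stress-induced mTORC1 inhibitor SESN2 at -1.20, the kinesin light chain KLC2 at -0.79, the homeobox factor PRRX1 at -0.78 and the mitochondrial carrier SLC25A26 at -0.74, none of which passed.

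A peak of pro-pol, a gene of retroviral origin whose copies can share reads, had the smallest p of the opposite direction. Its peak of 500 bp at chr5:92187533-92188032 had 746, 799 and 737 CPM in OAA labelled input, against 726, 693 and 747 CPM in CON labelled input. In OAA labelled IP it had 162, 156 and 566 CPM, against 708, 589 and 706 CPM in CON labelled IP. Replicate 3 of OAA labelled IP stood apart from the other two and near the CON libraries. The change of the ratio was 1.23 ± 0.33 (SE; adjusted p = 0.999, edgeR), and the difference in labelled IP was -1.17 ± 0.24 (adjusted p = 0.223, edgeR). Without replicate 3 of OAA labelled IP the peak was called, with a change of 2.11 and a labelled IP difference of -2.05. The second pro-pol peak, on chromosome 8, had a change of -0.04 ± 0.24. Further peaks of this direction, HS3ST3B1, ICA1L, NFIX, pol and RAB20, had changes of 1.45 to 2.42 with few reads in at least 1 group and did not pass.

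In labelled input the smallest p was that of SPP1, the secreted matrix protein osteopontin. Its peak had 75.8, 78.2 and 77.5 CPM in OAA labelled input, against 97.6, 95.6 and 97.2 CPM in CON labelled input, and 132, 116 and 115 CPM in OAA labelled IP, against 171, 142 and 132 CPM in CON labelled IP. The difference was -0.33 ± 0.08 (SE; adjusted p = 0.872, edgeR) in labelled input and -0.28 ± 0.10 (adjusted p = 0.998, edgeR) in labelled IP, with a change of the ratio of -0.06 ± 0.13. Its gene had 28.8 ± 1.62 FPKM in OAA and 37.1 ± 2.58 FPKM in CON (SD, n = 3 each), a difference of -0.35 on the log2(FPKM + 1) scale (limma adjusted p = 1.00). These FPKM come from the same libraries labelled IP. In the other direction, the chaperone CALR stood 0.23 and MVD, an enzyme of cholesterol synthesis, 0.31 higher in labelled input, and neither passed.

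In labelled IP the peaks with the smallest p besides pro-pol were MISP, an actin-bundling spindle protein, at 1.03, and SPTLC2, a subunit of the enzyme that starts sphingolipid synthesis, at 0.39, and on the lower side IGF2R, the receptor that sorts lysosomal enzymes, at -0.37, and TBC1D1 at -0.41. MISP had 10.4, 13.98 and 9.40 CPM in OAA labelled IP, against 5.22, 6.27 and 5.12 CPM in CON labelled IP. None of them passed with all libraries, and IGF2R was called without replicate 3 of OAA labelled IP (-0.45, adjusted p = 0.0304, edgeR). At the level of genes, 0 of 4353 tested genes with a stop codon peak differed in FPKM (limma on log2(FPKM + 1), adjusted p under 0.05), beside 0% of all 10763 genes, and 114 (2.62%) had an unadjusted p under 0.05, beside 3.31% of all genes. This count rests on single libraries: it was 620 of 4342 (14.3%) without replicate 3 of OAA labelled IP, beside 16.5% of all genes, 73 without replicate 2 of OAA labelled IP, 71 without replicate 2 of CON labelled IP and 65 with the replicate number as a block.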

How the data were processed

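Per the file headers, the deposited peak table holds raw read counts of 12 libraries in merged peaks, with the authors' log2 ratios, p-values, their -log10 values and a peak score; the deposited gene table holds FPKM of the 6 libraries whose codes belong to those labelled IP. Per the submitters' processing notes, HISAT2 and Bowtie2 were used. The sources used here do not give the peak caller, the genome build or whether samples were pooled for calling. The 29011 entries hold 25055 distinct peaks, each used once; 0 library columns were unmatched.

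Counts were compared with edgeR 4.0.16 (TMM, filterByExpr, quasi-likelihood test) in R 4.3.3 over all peaks, with Benjamini-Hochberg adjusted p under 0.05 called; the ratio and its change used all 12 libraries, and OAA against CON used the 6 of each kind. FPKM were compared with limma 3.58.1 on log2(FPKM + 1) where 3 libraries or more had 1 FPKM; this scale understates low genes. CPM are counts per 1000000 of a library's reads in peaks. DESeq2 1.42.0, library size scaling, other filters, the replicate number as a block, left-out libraries and other member limits were alternatives. The scripts were tested on simulated data, whose counts were given a smaller spread than the fits found here. That test does not give the power of the treatment comparisons. Starts are printed as 1-based.

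Members and lists were chosen with earlier results of these data known. Peaks named for the ratio are the 10 highest and 10 lowest in CON among those called alike in both treatments. They had at least 5 CPM on the higher side, 30 reads on the lower side and no overlap of the kinds. Treatment comparisons name the 6 smallest p per direction (not all printed), with a gene symbol and at least 5 CPM in the higher group. Lists name up to 3 peaks at each end, and YTHDF2, PSMD3, METTL3, METTL14, FTO and ALKBH5 were always taken. Peaks named for reads, EGR1, MYC and the spans and levels described were picked after values were seen. The planned motif search was not run, because no genome sequence was used here.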

Additional observations from a re-analysis of the deposited data

How the results depend on the processing

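The counts of stop codon peaks called by ratio moved by less than 1.5 times under every alternative run, although library size scaling made higher and lower calls near even (2043 and 1961 in OAA, 2031 and 1983 in CON); leaving out 1 library gave 2294 to 2380 higher and 1475 to 1580 lower in OAA and 2314 to 2379 higher and 1472 to 1560 lower in CON. The median ratio was 0.31 in OAA and 0.32 in CON; it became 0.0379 and 0.0208 with library size scaling, 0.42 and 0.41 with a mean of at least 5 CPM, 0.24 and 0.24 with spans of at most 1000 bp, and 4.29 and 4.24 in the authors' deposited log2 ratios, with a range of 0.32 to 0.35 in OAA and 0.33 to 0.36 in CON without single libraries. Its distance from all peaks, 0.28 in OAA and 0.30 in CON, became 0.49 and 0.49 with at least 5 CPM and 0.20 and 0.21 with spans of at most 1000 bp, and ranged over 0.23 to 0.37 and 0.27 to 0.39 without single libraries. The shares of reads became 29.3% in OAA labelled input, 29.3% in CON labelled input, 25.8% in OAA labelled IP and 25.9% in CON labelled IP with spans of at most 1000 bp, and 44.0%, 44.0%, 37.2% and 37.4% with peaks under several genes added; without single libraries they were 37.3% to 37.6%, 37.4% to 37.6%, 29.9% to 30.4% and 30.3% to 30.5%. With library size scaling 9 of 230 ratios of named or listed peaks turned sign. CTNNA1 in OAA (-0.00035) lost its call, and CTNND1 in OAA (-0.25, adjusted p = 0.0275, edgeR) and TRAF3IP1 in CON (-0.28, adjusted p = 0.0253, edgeR), not called before, were called lower. METTL16 (-0.26), NUAK2 (-0.25) and SPTLC2 (-0.15) in CON and ICA1L (-0.26), MVD (-0.22) and KDM2A (-0.12) in OAA were called with neither scaling. The cause was not tested.

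The replicate numbers were not shown to pair samples: deviations of labelled input and labelled IP of one number correlated at -0.04 to 0.15 over 17005 peaks, and those of OAA and CON at -0.12 to 0.02. With the replicate block 1 peak, pro-pol on chromosome 5, was called for the change of the ratio (1.48, adjusted p = 0.0204, edgeR). The same peak was called lower in labelled IP (-1.43, adjusted p = 0.00766, edgeR). No other count of called peaks or genes changed between treatments. Counts with an unadjusted p under 0.05 went from 224 to 184 in labelled input and from 159 to 113 in labelled IP (edgeR). The pro-pol peak was also the 1 called lower in labelled IP with no filter. Leaving out 1 library gave 0 to 1 peaks called for a higher change, 0 to 1 higher and 0 to 3 lower in labelled IP, all of them without replicate 3 of OAA labelled IP: pro-pol, IGF2R and PIK3C2A (-0.69) lower and THAP3 (0.58) higher, the last 2 named after their values were seen. The 4688 peaks tested in labelled IP, against 5181 in labelled input, go with its lower depth, 3709352 to 4607452 reads in peaks. The motif alternative was not run.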
